A study of Mus musculus with 9 samples.

Results

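The 10 genes described here, P2ry12, P2ry13, Gpr34, Tmem119, Siglech, Fcrls, Slc2a5, Olfml3, Sparc and Sall1, are genes by which microglia are commonly told from other myeloid cells. They were taken by gene symbol from the count tables, where all 10 were found among 23238 symbols. The question was how much of each was present in monocytes that had been sorted for lacking P2ry12 protein, from blood and from brain. The 9 libraries came from 12-week-old female wild-type C57BL/6N mice. Blood_Normal was blood of untreated mice. Blood_NMO and Brain_NMO were blood and brain of mice with a model of neuromyelitis optica (NMO), made by injecting antibody of patients (NMO-IgG) with human complement into 1 striatum, and taken on day 1. Each group had 3 libraries, and the paper describes each replicate as coming from a pool of 5 samples. In all 3 groups the gate was CD45+CD11b+P2ry12-Ly6C+Ly6G-. Blood cells came from a density gradient and brain cells from enzymatic dissociation and Percoll, and brain monocytes of untreated mice were not analysed here. Tissue and preparation therefore cannot be told apart in any comparison of Brain_NMO with blood.

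Microglia are the resident macrophages of the brain. They arise from yolk sac precursors, depend on the receptor Csf1r, and take on their identity under transforming growth factor β signalling and the transcription factor Sall1. P2ry12, P2ry13 and Gpr34 are G protein-coupled receptors, of which P2ry12 and P2ry13 bind ADP, and P2ry12 guides microglial processes to sites of damage. Tmem119 is a membrane protein, Siglech a receptor of the Siglec family, Fcrls a scavenger receptor related to Fc receptor-like proteins, and Slc2a5 a fructose transporter. Olfml3 and Sparc are secreted matrix proteins. Several of these genes have a second known source: platelets carry P2ry12, plasmacytoid dendritic cells carry Siglech, and endothelium and astrocytes make Sparc.

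P2ry12, P2ry13, Fcrls and Olfml3 all lie on the minus strand of mouse chromosome 3 (GRCm38). P2ry12 spans chr3:59216272-59262871 and P2ry13 spans chr3:59207892-59210882, with 5389 bases between them, and both sit inside Med12l, which runs on the other strand and has no exon in the last 500 bases of either gene. Fcrls spans chr3:87250758-87263738. These 3 promoters are shown because the neighbours P2ry12 and P2ry13 differed in blood, and because Fcrls was the most even member in the brain libraries. Each runs from 250 bases before to 50 bases after the RefSeq start site (GRCm38.p6, minus strand, written 5ʹ to 3ʹ), and capitals mark GAGGAA, the core of the site of the myeloid factor PU.1, on either strand.
P2ry12, chr3:59262936-59263235: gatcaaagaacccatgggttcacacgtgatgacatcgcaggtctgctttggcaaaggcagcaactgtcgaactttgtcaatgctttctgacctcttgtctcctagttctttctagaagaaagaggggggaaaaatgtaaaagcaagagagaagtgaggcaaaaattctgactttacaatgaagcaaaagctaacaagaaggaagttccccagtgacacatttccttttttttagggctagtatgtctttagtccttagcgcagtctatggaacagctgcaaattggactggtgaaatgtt
P2ry13, chr3:59210833-59211132: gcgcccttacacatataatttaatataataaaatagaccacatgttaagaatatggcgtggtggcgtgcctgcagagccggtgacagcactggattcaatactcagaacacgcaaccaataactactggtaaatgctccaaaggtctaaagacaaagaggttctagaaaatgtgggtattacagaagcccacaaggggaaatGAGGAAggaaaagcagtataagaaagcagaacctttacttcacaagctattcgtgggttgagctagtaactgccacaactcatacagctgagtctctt
Fcrls, chr3:87263475-87263774: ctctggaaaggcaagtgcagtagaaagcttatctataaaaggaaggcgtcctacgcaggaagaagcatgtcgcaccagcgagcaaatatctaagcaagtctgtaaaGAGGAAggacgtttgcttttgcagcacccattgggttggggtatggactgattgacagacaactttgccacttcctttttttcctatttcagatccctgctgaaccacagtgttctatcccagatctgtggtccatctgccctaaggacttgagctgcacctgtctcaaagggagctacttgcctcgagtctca
GAGGAA started 48 bases before the start site of P2ry13 and 144 bases before that of Fcrls, and these letters were not in the window of P2ry12. RefSeq promoters were matched for 8 of the 10 genes, with 10 entries in all, and 3 of these 10 entries held GAGGAA (those of P2ry13, Fcrls and Siglech), a share of 30.0%, near the 28.3% of all 32851 promoters. None of the 10 entries held the MEF2 motif CTAAAAATA, the interferon regulatory factor motif GAAANNGAA or the SMAD palindrome GTCTAGAC, which 0.517%, 8.56% and 0.213% of all promoters held.

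Total counts ran from 7584649 to 10419647 per library, and 28.4% to 43.6% of them fell on the ribosomal gene Rn45s. Values below are read counts scaled to the library total and by TMM factors (CPM). The 3ʹ method counts a transcript near its end whatever its length, so CPM values were set side by side between genes. A gene was called present in a library above a floor of 3 counts, which was 0.273 to 0.432 CPM. Blood_NMO replicate 3 stood apart. It had 4567 genes with a count, against 6473 to 11556 in the others, and 562 of the 2522 genes that were at 50 CPM or more in both other Blood_NMO libraries (22.3%) were at or under the floor in it. This share was 8.26% in Brain_NMO replicate 2 and at most 1.94% in the other libraries.

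The microglia identity genes were largely a feature of the brain libraries. All 10 were above the floor in at least 1 Brain_NMO library, and 6 of them (P2ry13, Gpr34, Tmem119, Fcrls, Slc2a5 and Olfml3) had no count in any of the 6 blood libraries. Across genes and libraries, 24 of 30 brain values (80.0%) and 10 of 60 blood values (16.7%) were above the floor, and 10 blood values were above it also without Blood_NMO replicate 3. The number of these 10 genes above the floor was 9, 8 and 7 in Brain_NMO, 2, 2 and 2 in Blood_Normal, and 1, 3 and 0 in Blood_NMO. Of all 23238 symbols, 9401, 5545 and 7996 were above it in Brain_NMO, and 4131 to 11097 in the 6 blood libraries. How many of all symbols had no count in blood was not taken. The 10 genes were chosen with earlier results of these data known, so these counts only describe them. Fewer cells that carry these transcripts and less transcript per cell cannot be told apart in such bulk libraries.

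**Figure D1:**
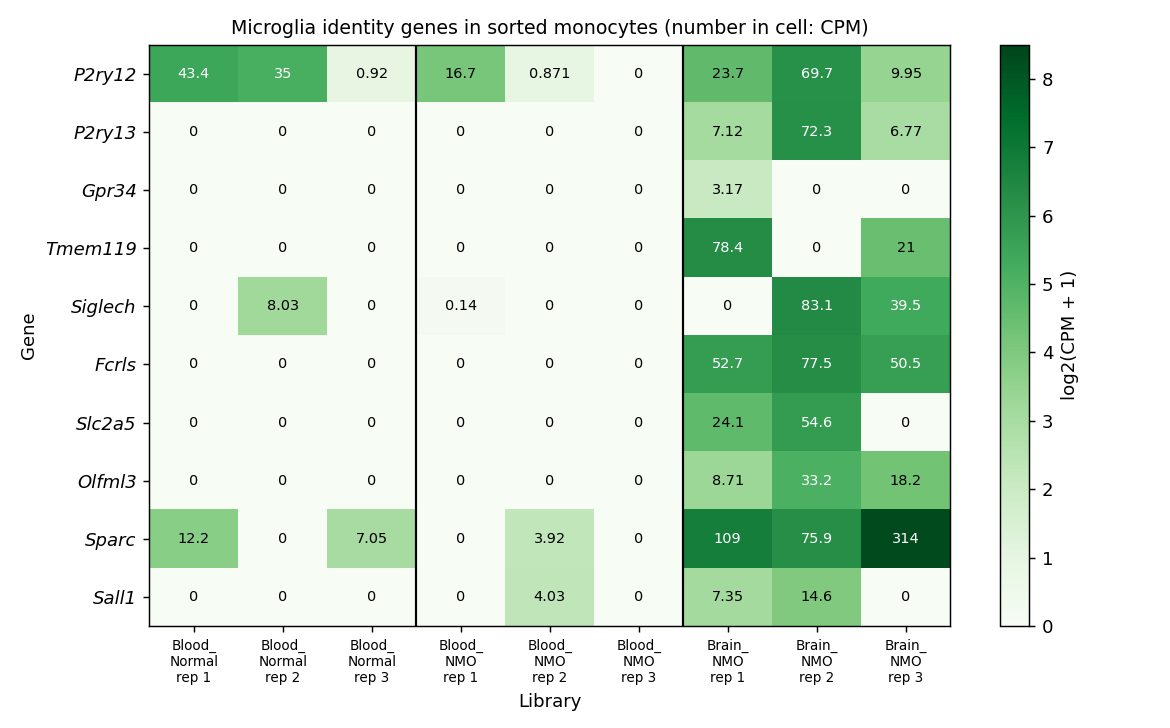
Level of each microglia identity gene (rows) in each of the 9 libraries (columns), with colour showing log2(CPM + 1) and the number in each cell the CPM. The Brain_NMO columns are filled for 9, 8 and 7 genes, and P2ry12 is the gene most often present in blood, in 5 of 6 blood libraries.

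P2ry12 itself, the protein used for the sort, was the exception. Its level in Blood_Normal was 43.4, 35.0 and 0.920 CPM in replicates 1 to 3. In Blood_NMO it was 16.7, 0.871 and 0 CPM. In Brain_NMO it was 23.7, 69.7 and 9.95 CPM. The groups overlapped, since Blood_Normal replicates 1 and 2 lay above 2 of the 3 brain libraries. The means were 26.4 ± 22.5 CPM in Blood_Normal, 5.85 ± 9.38 CPM in Blood_NMO and 34.5 ± 31.3 CPM in Brain_NMO (SD, n = 3), and no pair of these means differed beyond the spread. The log2 difference of Brain_NMO from Blood_Normal was 0.38 (SE 2.23, 95% interval -3.98 to 4.75) with an adjusted p of 1 by edgeR's quasi-likelihood test, and its sign turned when Blood_Normal replicate 3 (-0.17) or Brain_NMO replicate 2 (-0.63) was left out. From Blood_NMO it was 2.56 (SE 2.36), also with an adjusted p of 1. P2ry12 held 81.3% and 99.2% of the summed level of the 10 genes in Blood_Normal replicate 2 and Blood_NMO replicate 1 and 43.4 of 55.7 CPM in Blood_Normal replicate 1, but 11.5% in Blood_Normal replicate 3 and 9.88% in Blood_NMO replicate 2, and 2.16% to 14.5% in the brain libraries.

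Transcripts of platelets stood beside P2ry12 in blood. The summed level of 14 platelet genes was 3633, 726 and 586 CPM in Blood_Normal, 3108, 1031 and 638 CPM in Blood_NMO, and 33.2, 39.9 and 25.8 CPM in Brain_NMO. The highest platelet sum of each blood group was in the library with the most P2ry12, but Blood_Normal replicate 2 had 35.0 CPM of P2ry12 with a platelet sum near those of libraries under 1 CPM. In the brain libraries 2, 2 and 1 of the 14 platelet genes were above the floor. The platelet chemokine Pf4 was at 22.6, 0 and 0 CPM there, the integrin genes Itga2b at 0, 39.2 and 0 CPM and Itgb3 at 0, 0 and 25.8 CPM, and Ppbp and Nrgn had 0 or 1 count in each. Brain_NMO replicate 2, with the most P2ry12, was thus the brain library with Itga2b. The part of platelet RNA in the P2ry12 values was not tested. Med12l, the gene around P2ry12, had 348 counts over all 9 libraries.

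The neighbour P2ry13, also an ADP receptor, had no count in blood. In Brain_NMO it was at 7.12, 72.3 and 6.77 CPM, from 63, 760 and 68 counts, so that replicate 2 was 10.7-fold above replicate 3. Its mean of 28.7 ± 37.7 CPM (SD, n = 3) was at least 84.5-fold higher than Blood_NMO and at least 81.7-fold higher than Blood_Normal, taking 3 counts in each blood library. Bounds of this kind, here and below, are for the mean and cover counting error only, and most of this mean came from replicate 2. P2ry12 and P2ry13 were thus close to one another in Brain_NMO replicate 2, and in Blood_Normal replicate 1 there were 302 counts of P2ry12 and none of P2ry13. Gpr34, a lysophosphatidylserine receptor, was the least abundant of the 10 genes. It had 28 counts (3.17 CPM) in Brain_NMO replicate 1 and none elsewhere.

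Fcrls was the most even of the 10 genes in brain. It stood at 52.7, 77.5 and 50.5 CPM in Brain_NMO, from 466, 815 and 508 counts, and at 0 in all 6 blood libraries. The highest brain library was 1.53-fold above the lowest, and the mean was 60.3 ± 15.0 CPM (SD, n = 3), at least 177-fold higher than Blood_NMO. Olfml3 had the same pattern, with 8.71, 33.2 and 18.2 CPM in Brain_NMO and no count in blood. Its mean of 20.0 ± 12.3 CPM was at least 59.0-fold higher than Blood_NMO.

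Tmem119 and Slc2a5 were present in 2 of 3 brain libraries each, and not in the same 2. Tmem119 was at 78.4, 0 and 21.0 CPM in Brain_NMO, so that 693 counts in replicate 1 stood against none in replicate 2. Slc2a5 was at 24.1, 54.6 and 0 CPM. Neither had a count in blood. Their means, 33.1 ± 40.6 CPM and 26.2 ± 27.4 CPM (SD, n = 3), were at least 97.5-fold and 77.2-fold higher than Blood_NMO, but both overlapped the blood groups at 0, and with Gpr34 they did not pass the filter on low counts and were not tested.

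Siglech was at 0, 83.1 and 39.5 CPM in Brain_NMO. In blood it had 76 counts (8.03 CPM) in Blood_Normal replicate 2, 1 count in Blood_NMO replicate 1 and none in the other 4 libraries. The groups overlapped at 0. A list of 10 other genes of plasmacytoid dendritic cells summed to 286 to 455 CPM in Blood_Normal, 159 to 334 CPM in Blood_NMO and 189 to 452 CPM in Brain_NMO, and none of its 8 tested genes passed either threshold in Brain_NMO against both blood groups. By group means, most of this sum was Tcf4, Irf7 and Runx2, at 158, 53.6 and 42.4 CPM in Brain_NMO. The other genes of the list averaged at most 18.9 CPM there (Bst2), so the sum mainly followed those genes. The sum was highest in Blood_Normal replicate 2, the blood library with Siglech, but Brain_NMO replicate 2, with the most Siglech, had the lowest of the brain sums (189 CPM). The part of these cells in the Siglech values was not tested.

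Sall1, the transcription factor that maintains microglial identity, was at 7.35, 14.6 and 0 CPM in Brain_NMO and at 4.03 CPM (37 counts) in Blood_NMO replicate 2, with no count in the other 5 blood libraries. Brain_NMO exceeded Blood_NMO by 2.43 on the log2 scale (SE 3.55, adjusted p = 1, edgeR), a difference within the spread. Its mean of 7.30 ± 7.28 CPM (SD, n = 3) was, with that of Gpr34, among the 2 lowest of the 10 genes.

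Sparc was the most abundant of the 10 genes, and present in both tissues. It was at 109, 75.9 and 314 CPM in Brain_NMO, at 12.2, 0 and 7.05 CPM in Blood_Normal and at 0, 3.92 and 0 CPM in Blood_NMO. Every brain library lay above every blood library. The log2 difference of Brain_NMO was 6.98 from Blood_NMO (SE 2.35) and 4.69 from Blood_Normal (SE 2.11). Sparc held 68.3% of the summed level of the 10 genes in Brain_NMO replicate 3, against 34.7% and 15.8% in replicates 1 and 2.

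Endothelial transcripts were also highest in that library. The summed level of 10 endothelial genes was 612, 349 and 2012 CPM in Brain_NMO, against 140 to 309 CPM in the 6 blood libraries, and it ranked the 3 brain libraries as Sparc did. The vascular endothelial growth factor receptor Flt1 was at 87.5, 0 and 554 CPM and the transporter Slco1a4 at 59.6, 0 and 452 CPM in Brain_NMO. In replicate 2, with 75.9 CPM of Sparc, these and Cldn5 were at 0. There 4 of the 10 endothelial genes were above the floor, against 9 and 10 in replicates 1 and 3. The 4 were Slc2a1, Pecam1 at 82.6 CPM, Cdh5 at 32.0 CPM and Ly6c1, which is also a sorting marker. Slc2a1, at 218 CPM or more in every Brain_NMO library, made up most of the 349 CPM. In Blood_Normal, Slc2a1, Ly6c1 and Pecam1 averaged 57.4, 50.5 and 45.3 CPM. Astrocyte genes summed to 116, 0 and 532 CPM in Brain_NMO, against 0 to 19.9 CPM in blood, with the matrix gene Sparcl1 at 58.7, 0 and 503 CPM, and none of the 10 astrocyte genes passed the filter. The part of endothelium and astrocytes in the Sparc values was not tested.

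**Figure D2:**
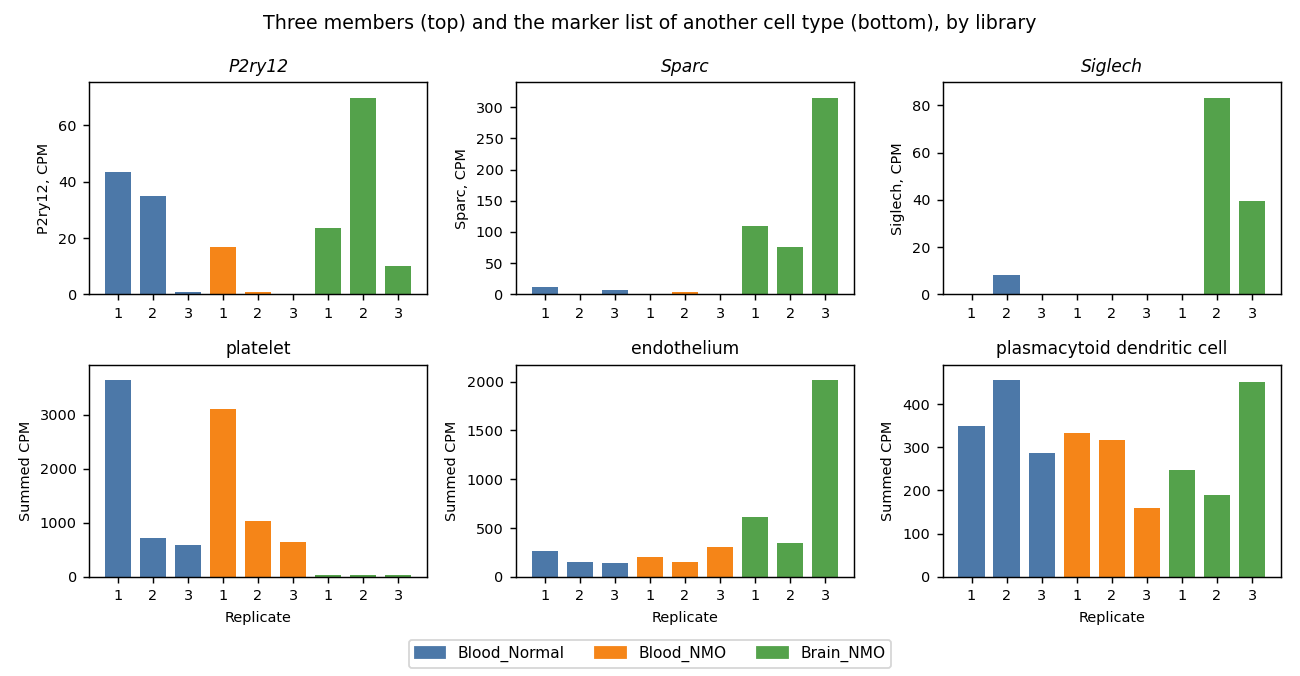
Upper row, CPM of P2ry12, Sparc and Siglech in each library (bars, replicates 1 to 3 of each group). Lower row, summed CPM of the marker list of another cell type that carries the gene: platelets were high in Blood_Normal and Blood_NMO replicate 1, endothelium in Brain_NMO replicate 3, and plasmacytoid dendritic cell genes were at 159 to 455 CPM throughout. By group means, the plasmacytoid dendritic cell sum was mostly Tcf4, Irf7 and Runx2.

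Summed over the 10 genes, Brain_NMO reached 315, 481 and 460 CPM, Blood_Normal 55.7, 43.0 and 7.97 CPM, and Blood_NMO 16.8, 8.81 and 0 CPM. The groups of brain and blood did not overlap. The means were 419 ± 90.7, 35.6 ± 24.7 and 8.54 ± 8.41 CPM (SD, n = 3), and the brain mean was 252 CPM without Sparc. The brain sums lay within 1.53-fold of one another while their make-up changed. Tmem119 gave 24.9% of the sum in replicate 1 and none in replicate 2, P2ry13 gave 15.0% in replicate 2 and 1.47% in replicate 3, and Siglech gave none in replicate 1 and 17.3% in replicate 2. Presence in only some replicates was not peculiar to these genes. Of 8355 other tested genes with a mean brain level in the range of the 10 genes, 3770 (45.1%) were above the floor in all 3 brain libraries, as were 5 of the 7 microglia identity genes tested and 5 of all 10.

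**Figure D3:**
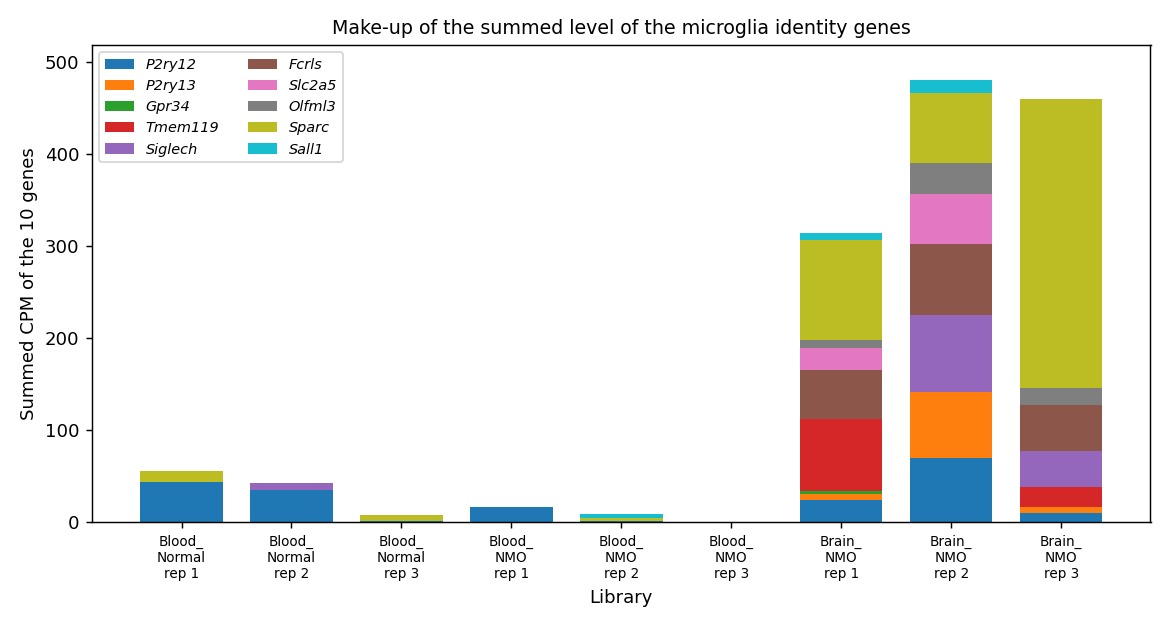
Summed CPM of the 10 microglia identity genes in each library (bar height), split by gene (colours). The 3 Brain_NMO bars reach 315, 481 and 460 CPM with different leading genes, and the blood bars, at most 55.7 CPM, are led by P2ry12 in 3 libraries, by Sparc in Blood_Normal replicate 3 and by Sall1 and Sparc in Blood_NMO replicate 2.

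In Brain_NMO against Blood_NMO, 7 of the 10 genes passed the filter on low counts (all but Tmem119, Gpr34 and Slc2a5), and 0 of the 7 had an adjusted p under 0.05, a threshold that 0.247% of the 10107 genes tested passed (25 genes). Fcrls came nearest, with an adjusted p of 0.439, followed by Sparc at 0.686, and both by edgeR. At the study's own threshold, an unadjusted p under 0.05 with a fold change of 1.2, 5 of the 7 passed as higher: Fcrls, Sparc, P2ry13, Olfml3 and Siglech, the last 3 with an adjusted p of 0.802 each by edgeR. This threshold was passed as higher by 1.48% of all genes tested. The groups did not overlap for P2ry13, Fcrls, Olfml3 and Sparc, beside 6.3% of all genes tested with every brain library above every Blood_NMO library. A gene absent from blood passed the filter only through its brain counts, so these counts describe the 7 genes and do not set them apart. Leaving out 1 library moved the 5 calls to between 2 and 7. With 1 blood library left out, Tmem119 and Slc2a5 passed the filter and were tested too. The 7 calls, as without Blood_Normal replicate 1, included both of them and neither P2ry12 nor Sall1. Without Blood_NMO replicate 1 or 2 there were 2 (Fcrls and Sparc), and without Blood_NMO replicate 3, Brain_NMO replicate 2 or Brain_NMO replicate 3 there were 3. Sparc missed this threshold without Brain_NMO replicate 3, where its adjusted p was 0.904 by edgeR.

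Brain_NMO against Blood_Normal shares the brain libraries with the comparison above. Again 0 of 7 genes had an adjusted p under 0.05 (0.247% of all genes), and 4 passed the unadjusted threshold as higher (1.75% of all genes): Fcrls, P2ry13, Olfml3 and Sparc. These 4 did not overlap between the groups, beside 6.07% of all genes. Siglech differed by 3.92 on the log2 scale (SE 3.25, adjusted p = 1, edgeR), with 1 of 3 Blood_Normal libraries at 8.03 CPM. Leaving out 1 library moved the 4 calls to between 1 and 6. The 6 calls, as without Blood_NMO replicate 1, included Tmem119 and Slc2a5, which passed the filter in the fits without 1 blood library. Without Blood_Normal replicate 3 only Fcrls passed the unadjusted threshold, and without Blood_Normal replicate 2 only Fcrls and Siglech, whose log2 difference was then 11.55. P2ry13 and Olfml3 also missed it without Blood_Normal replicate 1 or Brain_NMO replicate 2, Sparc and Olfml3 without Brain_NMO replicate 3, and Sparc without Brain_NMO replicate 1.

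Against both blood groups together, which uses all 9 libraries, 0 of 7 genes had an adjusted p under 0.05 (0.435% of all genes) and 5 passed the unadjusted threshold as higher (2.62% of all genes). Fcrls, at least 174-fold higher, had an adjusted p of 0.0781 by edgeR. It passed the adjusted threshold when Blood_NMO replicate 3 was left out (0.0397, edgeR), and its adjusted p ran from 5.06e-08 to 0.239 over the alternative tests and settings. Sparc was higher by 5.84 (SE 1.65, adjusted p = 0.262, edgeR), and by an adjusted p of 0.0423 without Blood_NMO replicate 2. P2ry13 had an adjusted p of 0.314, Olfml3 0.401, Siglech and Sall1 0.618 each and P2ry12 1.00. The 4 genes without overlap stood beside 3.57% of all genes.

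Between the blood groups, none of the 7 genes passed either threshold. Over all genes tested, 0 had an adjusted p under 0.05 by edgeR (0% of all genes), 72 passed the unadjusted threshold in either direction and 47 of these were higher in Blood_NMO (0.465%), and DESeq2 called 69 at an adjusted p under 0.05. P2ry12 differed by -2.18 (SE 2.32, 95% interval -6.73 to 2.38) and Sparc by -2.28 (SE 1.91, interval -6.02 to 1.46) on the log2 scale, both lower in Blood_NMO and within the spread. The Sparc value rested on Blood_NMO replicate 2, the only Blood_NMO library with Sparc: without it the log2 difference was -8.88 (SE 2.71, adjusted p = 1, edgeR), past the unadjusted threshold. Siglech in Blood_Normal and Sall1 in Blood_NMO each rested on 1 library.

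P2ry13, Olfml3 and Fcrls shared their pattern with other genes. Of 23238 symbols, 17 (0.0732%) were above the floor in all 3 Brain_NMO libraries and without a count in all 6 blood libraries. P2ry13, Olfml3 and Fcrls were among the 17. The 23238 symbols include 8796 with no count in any library, which could not show this pattern. The genes described here were chosen with earlier results of these data known, so this count only describes them. The highest mean brain levels of the 17 were those of the chemokine Ccl7 (165 CPM), the complement genes C1qa (115 CPM) and C1qc (98.5 CPM), and Adgrl4 (92.8 CPM), a receptor of endothelium. They were followed by Mpzl1 (74.8 CPM), Fcrls (60.3 CPM), Slc9a3r2 (59.2 CPM), the transporter Slco2b1 (50.1 CPM), the endothelial gene Rasip1 (37.3 CPM) and Gas6 (29.2 CPM), a ligand of the receptors by which macrophages take up dead cells. The order in the single libraries differed. Slco2b1, like Fcrls, was even, at 42.6, 57.4 and 50.2 CPM, while Adgrl4 was at 9.39, 73.0 and 196 CPM and Rasip1 at 3.96, 26.0 and 81.9 CPM, highest in the library with the highest endothelial sum.

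By the set of libraries in which a gene was above the floor, 18 other genes matched P2ry13, Olfml3 and Fcrls, and the nearest in mean level were Gas6, Tanc2 and Mal for P2ry13, Tgfb2, Ptprm and Mettl10 for Olfml3, and Slc9a3r2, Podxl and Slco2b1 for Fcrls. Tmem119 shared its set, Brain_NMO replicates 1 and 3, with 86 genes, of which Ramp2, Cldn5 and Uaca were nearest, and Cldn5 is a tight junction gene of endothelium. Slc2a5 shared its set with 12 genes, the nearest being Ltc4s, Slc6a8 and Esyt3. Ltc4s is itself enriched in microglia. Sall1 shared its set with 3 genes (Pnp2, Smim5 and Aste1), Sparc with 1 (Shmt2) and Siglech with none. P2ry12 shared its set, every library but Blood_NMO replicate 3, with 1282 genes, the nearest being Gm6402, Recql and Dnttip1. Gpr34 shared its single library with 375, the nearest being Bcas1, Col9a1 and Gm7609.

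Other genes enriched in microglia, but shared to different degrees with other macrophages, were present in blood as well. The 25 genes of this list summed to 8754, 8386 and 7029 CPM in Brain_NMO, 4384 to 4956 CPM in Blood_Normal and 4180, 4421 and 1648 CPM in Blood_NMO. Of 21 tested against both blood groups, 4 rose at an adjusted p under 0.05 by edgeR, none fell, and the median log2 difference was 1.25, beside 0.01 over all genes tested. The cathepsin gene Ctsd rose by 1.89 (SE 0.30, adjusted p = 0.0139, edgeR), from 181 to 380 CPM in blood to 1056 to 1336 CPM in brain. The 3 genes of complement C1q also rose. C1qa was at 67.9, 182 and 96.1 CPM and C1qc at 92.5, 80.4 and 122 CPM in Brain_NMO, without a count in blood, and C1qb was at 24.8, 403 and 163 CPM with at most 7.14 CPM in blood (adjusted p = 0.0139, 0.0207 and 0.0263 by edgeR). The protease Ctss differed by 0.84 (SE 0.26, adjusted p = 0.333, edgeR), Csf1r by 0.80 (SE 0.40, adjusted p = 0.618, edgeR) and the protease inhibitor Cst3 by 0.55 (SE 0.38, adjusted p = 0.898, edgeR).

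Regulators of the microglial program showed no common direction. Of 15 tested, 8 were fitted higher and 7 lower in Brain_NMO than in both blood groups, with a median of 0.22, and 1 passed an adjusted p of 0.05. This was Irf8, a transcription factor needed for monocytes and microglia, which fell by 2.93 on the log2 scale (SE 0.32, adjusted p = 0.000944, edgeR), from 1279 to 1877 CPM in blood to 265, 137 and 192 CPM in brain. Mef2a differed by 0.45 (SE 0.36, adjusted p = 1.00, edgeR).

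Among 12 genes listed as P2Y or related, other than the 3 receptors above, 10 were tested and none passed the adjusted threshold, with a median log2 difference of 1.23. Not all of the 12 are purine receptors. P2ry6, the UDP receptor of macrophages and microglia, passed the unadjusted threshold as higher at 66.0, 133 and 71.4 CPM in brain against 0 to 19.0 CPM in blood. P2ry10, a lymphocyte-rich receptor, passed it as lower at 1.13, 0 and 7.36 CPM against 14.7 to 115 CPM. Gpr171 and P2rx7 overlapped between brain and blood. Of 24 relatives of the other genes, 11 were tested and 0 passed the adjusted threshold, with a median of 0.38. The glucose transporter gene Slc2a1 was at 218, 228 and 364 CPM in brain and at 0 to 87.2 CPM in blood (adjusted p = 0.618, edgeR), while Slc2a6 and Tmem176b overlapped.

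Markers of other cells also differed between the tissues. Of 15 genes of border-associated macrophages, the brain macrophages of meninges and vessels, 9 were tested and 0 passed the adjusted threshold, and the list summed to 1617 to 2016 CPM in Brain_NMO, 1285 to 1510 CPM in Blood_Normal and 407 to 1782 CPM in Blood_NMO. Apoe was at 1137, 1180 and 714 CPM in brain against 107 to 708 CPM in blood, and F13a1 overlapped. Against both blood groups, 5 of the 9 did not overlap as higher in brain, beside 3.57% of all genes tested, and 1 as lower. At the unadjusted threshold 3 of this list were higher, beside 2.62% of all genes tested, and 1 was lower. The median log2 difference was 2.10, beside 0.01 over all genes. The C-type lectin gene Clec4n was at 321, 156 and 124 CPM in brain against at most 20.4 CPM in blood (adjusted p = 0.252, edgeR), Mrc1 was at 25.3, 62.1 and 37.0 CPM against at most 15.4 CPM, and Ms4a7 was at 25.8, 51.9 and 14.5 CPM against at most 6.96 CPM. Folr2, Siglec1, Cd209f and Cd38 of the same list had no count in brain. Cd163 and Lyve1 were above the floor in 1 brain library each. Pf4 averaged 7.54 CPM in brain against 216 CPM in Blood_Normal and 315 CPM in Blood_NMO. Monocyte genes were abundant in all 9 libraries, with sums of 5508 to 8799 CPM in blood and 6349 to 11111 CPM in brain. Lyz2, S100a4 and Plac8 overlapped. Against both blood groups, 0 of the 15 passed the adjusted threshold. At the unadjusted threshold 5 were higher in brain, beside 2.62% of all genes, and 1 was lower. Ccr2 and F10 did not overlap as higher, beside 3.57% of all genes, and 1 gene did not overlap as lower. Ccr2 was at 786 to 1297 CPM in brain against at most 691 CPM in blood, and F10 at 298 to 594 CPM against at most 205 CPM. Genes of natural killer cells summed to 2598 to 3826 CPM in blood and 39.9 to 337 CPM in brain, and 4 of 10 fell at an adjusted p under 0.05 by edgeR, among them Nkg7, Gzma and Klra8. Of 13 platelet genes tested, Nrgn and Ppbp fell (adjusted p = 0.000529 and 0.00214, edgeR). Neutrophil genes summed to 444, 1790 and 1117 CPM in brain and to 85.0 to 315 CPM in blood, with none of 7 past the adjusted threshold. Neuron genes reached 76.3 CPM in Brain_NMO replicate 1 and 0 in replicates 2 and 3, and oligodendrocyte genes overlapped, at 44.1 to 58.7 CPM in brain and 0 to 115 CPM in blood. Of the sorting markers, Ptprc (CD45), Itgam (CD11b), Ly6c1 and Ly6c2 were found in every library. Ly6c2 was at 437, 59.4 and 199 CPM in brain against 462 to 933 CPM in blood (adjusted p = 0.446, edgeR). Ptprc was at 466 to 1009 CPM in brain against 1149 to 1893 CPM in blood, and Itgam was higher, at 415 to 652 CPM against 299 to 392 CPM. Against both blood groups, 2 of these 4 passed the unadjusted threshold as lower, beside 431 of the 10107 genes tested, and 0 passed the adjusted threshold. Ly6g was not analysed here. The part of any of these cells in the levels of the 10 genes was not tested.

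**Figure D4:**
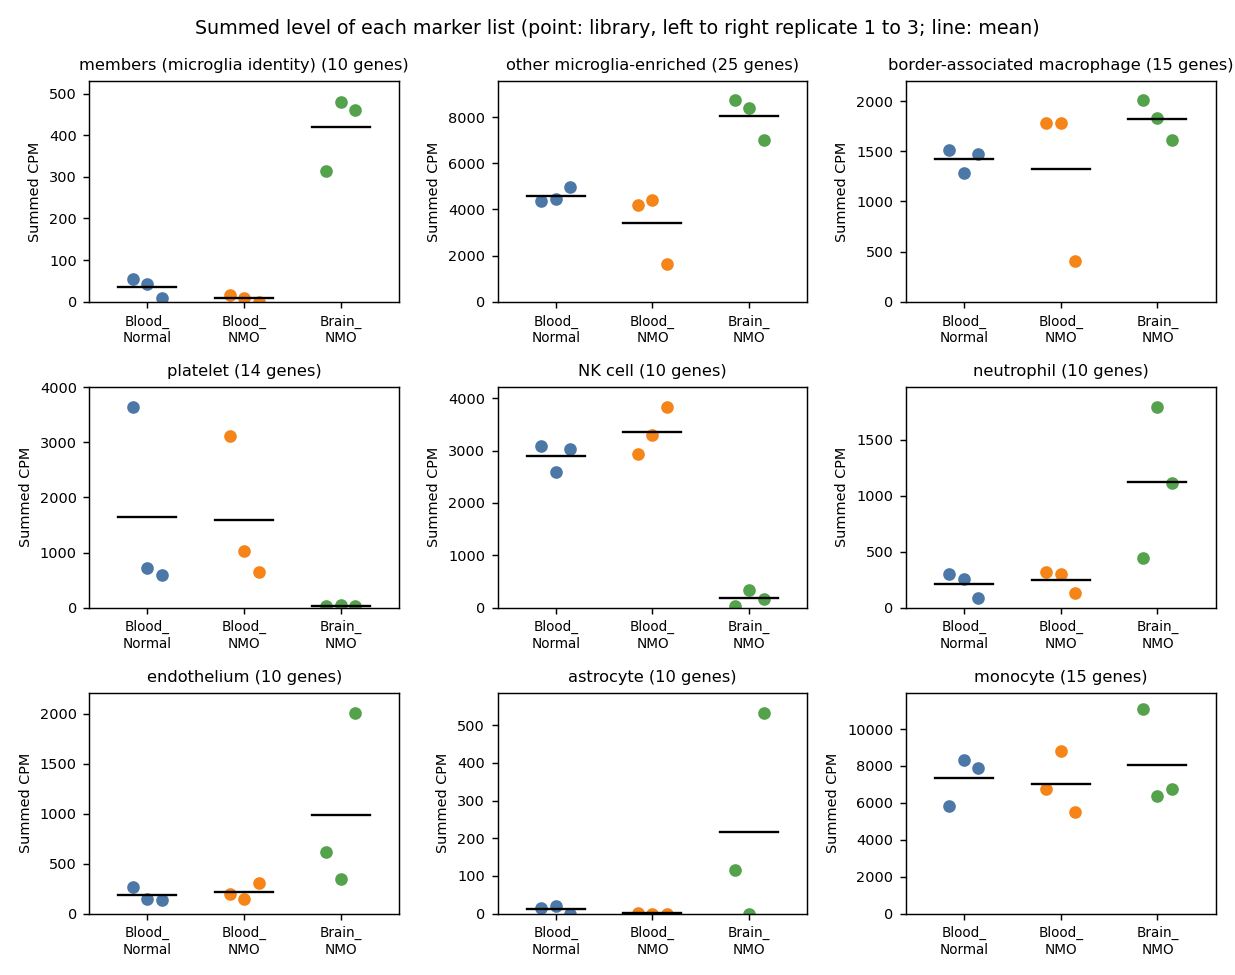
Summed CPM of 9 marker lists in each library (points, with the mean of each group as a line). The 10 microglia identity genes are at 315 to 481 CPM in Brain_NMO and at most 55.7 CPM in blood, the other microglia-enriched genes are present in both tissues, and platelet and natural killer cell genes are low in brain.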

How the data were processed

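Single-end QuantSeq 3ʹ libraries of 9 pools of sorted monocytes were measured. The authors aligned reads with Bowtie2, used Bedtools to count alignments, both unique and multiple, and deposited these raw read counts by gene symbol; the labels name build mm10, and tool versions, annotation and strand setting are not given in the sources used here. Genes with similar copies may share reads. Of 23282 entries, 35 symbols were repeated (none of the 10 genes), of which the highest was taken; 8796 symbols had no count. Groups came from the labels, which name no batch.

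Counts of the 10107 genes that passed filterByExpr were tested with edgeR 4.0.16 (R 4.3.3; TMM, glmQLFit, glmQLFTest, all 9 libraries in 1 fit, two-sided, Benjamini-Hochberg adjustment). The common dispersion was 2.87. Whether pools shared a day of injection or sorting is not given, so p-values measure the spread between these libraries. Bounds on folds use 3 counts in each blood library and cover counting error only. Replicates of a group differed beyond sampling noise (chi-square per degree of freedom 77.4 to 343).

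The 10 genes and all lists were chosen with earlier results of these data known. Named besides the 10 were up to 4 genes of each list with the highest mean CPM, the 3 genes nearest in level with the same set of libraries above the floor, and the 10 highest genes found only in brain. C1qb, Med12l, Itgb3, Cdh5, Pecam1, Mrc1, Ms4a7, Folr2, Siglec1, Cd209f, Cd38, Cd163, Lyve1, Ccr2 and F10 were named after their values were seen. Csf1r, Siglec1, Slc2a1, Sparcl1, Pf4, Ly6c1 and Ly6c2 stand in more than 1 list. Gene positions are from GENCODE M21 (GRCm38) and promoters from RefSeq (GRCm38.p6). Alternatives were RLE factors, library sizes alone, counts without Rn45s, no filter, at least 10 counts in every library, DESeq2 1.42.0, limma 3.58.1 (voom with quality weights, and log2(CPM + 1)), a fit of only the libraries in question, a block for replicate number, and each library left out; the test was tried on simulated data.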

Additional observations from a re-analysis of the deposited data

How the results depend on the processing

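The counts of microglia identity genes and of all genes depended on the test and the filter, and the cause was not tested. In Brain_NMO against Blood_NMO, the adjusted threshold was passed by 0 of the 10 in edgeR's test, 1 without a filter (Sparc), 3 with DESeq2 (Fcrls, Siglech and Sparc) and 2 with limma-voom (Fcrls and Olfml3). DESeq2 gave P2ry13 no p in any comparison, so it is in none of its counts. All genes at that threshold numbered 25, against 110 without a filter, 16 with at least 10 counts in every library, 336 with DESeq2, 51 with limma-voom, 47 with limma on log2(CPM + 1) and 7 with only the groups compared (15 to 36 with 1 library left out). In Brain_NMO against Blood_Normal, DESeq2 and limma-voom each called 1 of the 10 (Fcrls), and the count of all genes was 115 without a filter and 366 with DESeq2 (11 to 62 with 1 library left out). Calls at the unadjusted threshold ran from 2 to 7 and from 1 to 6 in these comparisons with 1 library left out. Tmem119 and Slc2a5 were also tested when that was a blood library. Against both blood groups the 10 genes gave 1 call with library sizes alone (Fcrls), 2 without a filter (Fcrls and Sparc), 3 with DESeq2 (Fcrls, Olfml3 and Sparc), 4 with limma-voom (Fcrls, Olfml3, P2ry13 and Sparc), 1 with limma on log2(CPM + 1) (Fcrls) and 0 to 1 with 1 library left out. Calls at the unadjusted threshold were 8 without a filter, with Tmem119, Gpr34 and Slc2a5 among them, and 5 to 7 with 1 library left out. All genes numbered 44, against 68 with library sizes alone, 181 without a filter, 495 with DESeq2, 122 with limma-voom and 91 with limma on log2(CPM + 1) (21 to 90 with 1 library left out). Between the blood groups, all genes numbered 0, against 2 without a filter and 69 with DESeq2, and 0 to 1 of the 10 passed the unadjusted threshold with 1 library left out (Sparc, without Blood_NMO replicate 2).

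The sign turned for P2ry12 in Brain_NMO against Blood_Normal with limma-voom (-0.47), without Blood_Normal replicate 3 (-0.17) and without Brain_NMO replicate 2 (-0.63), and for Siglech between the blood groups without Blood_Normal replicate 2 (2.07). With 1 library left out, these values ran from -0.63 to 0.94 and from -7.68 to 2.07. Of the fitted log2 differences of the 10 genes, 411 kept their direction and side of the threshold, 21 passed it where the value given in the text did not, and 4 turned. With at least 10 counts in every library, no value could be had, since none of the 10 genes passed. The mean summed level of the 10 genes in brain was 648 CPM without Rn45s and, chosen after seeing the data, 252 CPM without Sparc. With 1 library left out it ran from 387 to 471 CPM in Brain_NMO, from 25.5 to 49.3 CPM in Blood_Normal and from 4.41 to 12.8 CPM in Blood_NMO.

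Libraries with the same replicate number correlated by -0.0102 to 0.116 in their deviations from the group means. Those with different numbers correlated by -0.0957 to 0.0301. Such correlations cannot tell whether pools with the same number shared mice or a day, which is not given. With the replicate block, calls at the unadjusted threshold fell from 5 to 2 in Brain_NMO against Blood_NMO and from 4 to 1 in Brain_NMO against Blood_Normal.

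On limits, 3 libraries a group, with many genes at 0 in single libraries, gave wide errors, and the differences of P2ry12 and Sall1 were within the spread in edgeR's test. Libraries of untreated brain and of microglia were not analysed here, so levels cannot be set against either.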
